A study of Danio rerio with 14 samples.

Results

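The crystallins of the alpha, beta and gamma classes were followed in zebrafish eyes after exposure to tetrabromobisphenol A (TBBPA), a brominated flame retardant. Members were all probes whose gene symbol in the platform annotation begins with cryaa, cryab, cryba, crybb, crybg, crygm, crygn or crygs, which gave 36 of the 8948 named genes, measured by 62 of the 17950 probes. The alpha class held 4 probes of 1 gene (cryaa), the beta class 21 probes of 8 genes and the gamma class 37 probes of 27 genes, while the cryab and crybg prefixes had 0 probes. Zeta and lambda crystallin and the cryptochromes, which share the first letters but belong to other families, were left out by this rule.

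Eyes came from wild-type AB larvae kept in plates of 24 eggs, and the eyes of 10 larvae of a plate were pooled into 1 RNA sample. The TBBPA group received 200 µg/L up to 5 days post fertilization (dpf) and the control group none, with the solvent dimethyl sulfoxide in the control medium according to the methods. For each treatment, 3 plates were sampled at 5 dpf (control 5 dpf and TBBPA 5 dpf), and 3 further plates at 8 dpf after 3 days in clean water (control 8 dpf and TBBPA 8 dpf). The 12 RNA samples were hybridised in pairs on 14 two-colour arrays.

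Crystallins are the main soluble proteins of the lens fibre cells, where their dense packing gives the lens its refractive power. Alpha crystallins are small heat shock proteins that keep other proteins in solution. Beta and gamma crystallins are structural proteins that share a fold, the beta class forming oligomers and the gamma class monomers, and the methionine-rich gamma M crystallins (crygm) are typical of the hard lens of fish. New fibre cells are laid down around the older ones as the eye grows.

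Of these arrays, 6 held TBBPA against control of 5 dpf and 4 held TBBPA against control of 8 dpf. The remaining 4 set a sample of one age against a sample of the other, each carrying replicate 1 of control 5 dpf or replicate 1 of TBBPA 5 dpf. Fold changes below are log2 values ± standard error (SE) from limma, and a probe is said to have risen or fallen when its p, adjusted over all 17950 probes, was under 0.05. The estimated share of variance common to arrays of the same RNA sample was 0 in this fit, which has no dye effect. Its SE and p therefore take the 14 arrays as independent, and repeat arrays of an RNA sample count as replicates. With a dye effect in the model this share was 0.318, so that the value of 0 does not show independent arrays. With plates in place of arrays as replicates, limma called 0 crystallin probes at 5 dpf. A sample level is the least-squares value of an RNA sample for a probe, in log2 units relative to the mean of the 12 samples. Ratios carry no absolute level, so that probes cannot be ranked against each other by abundance. The labelled tissue could be checked only by which marker genes were measured, among them 27 of lens and 22 of photoreceptors. Markers of other tissues were measured as well, with 15 genes of exocrine pancreas, 28 of skeletal muscle and 18 of cartilage and bone. Measured markers therefore do not show that only eye tissue was labelled. In whole eyes, fewer lens cells and less crystallin RNA per cell cannot be told apart.

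At 5 dpf, directly after exposure, 13 of the 62 crystallin probes rose and 0 fell. Over all 17950 probes with values, which are a part of those on the array, 4.23% rose and 2.84% fell. The probes that rose were 9 of 21 in the beta class, 2 of 4 in the alpha class and 2 of 37 in the gamma class. Of all 62 probes, 55 had a positive fold change, including each of the 21 beta probes, where 49.4% of all 17950 probes did. The 21 beta probes measure 8 genes in the same samples, so that they are not separate observations. The median log2 fold change was 0.38 in the beta class, 0.25 in the alpha class and 0.11 in the gamma class, against -0.00 over all probes. The alpha median describes no probe, since it lies between cryaa probes at -0.09 and others at 0.58 and 0.71. Past the additional limit of the study, an absolute log2 fold change over 0.75, there were 8 crystallin probes (12.9%), all higher after TBBPA, compared with 0.357% of all probes higher and 0.351% lower.

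**Figure D1:**
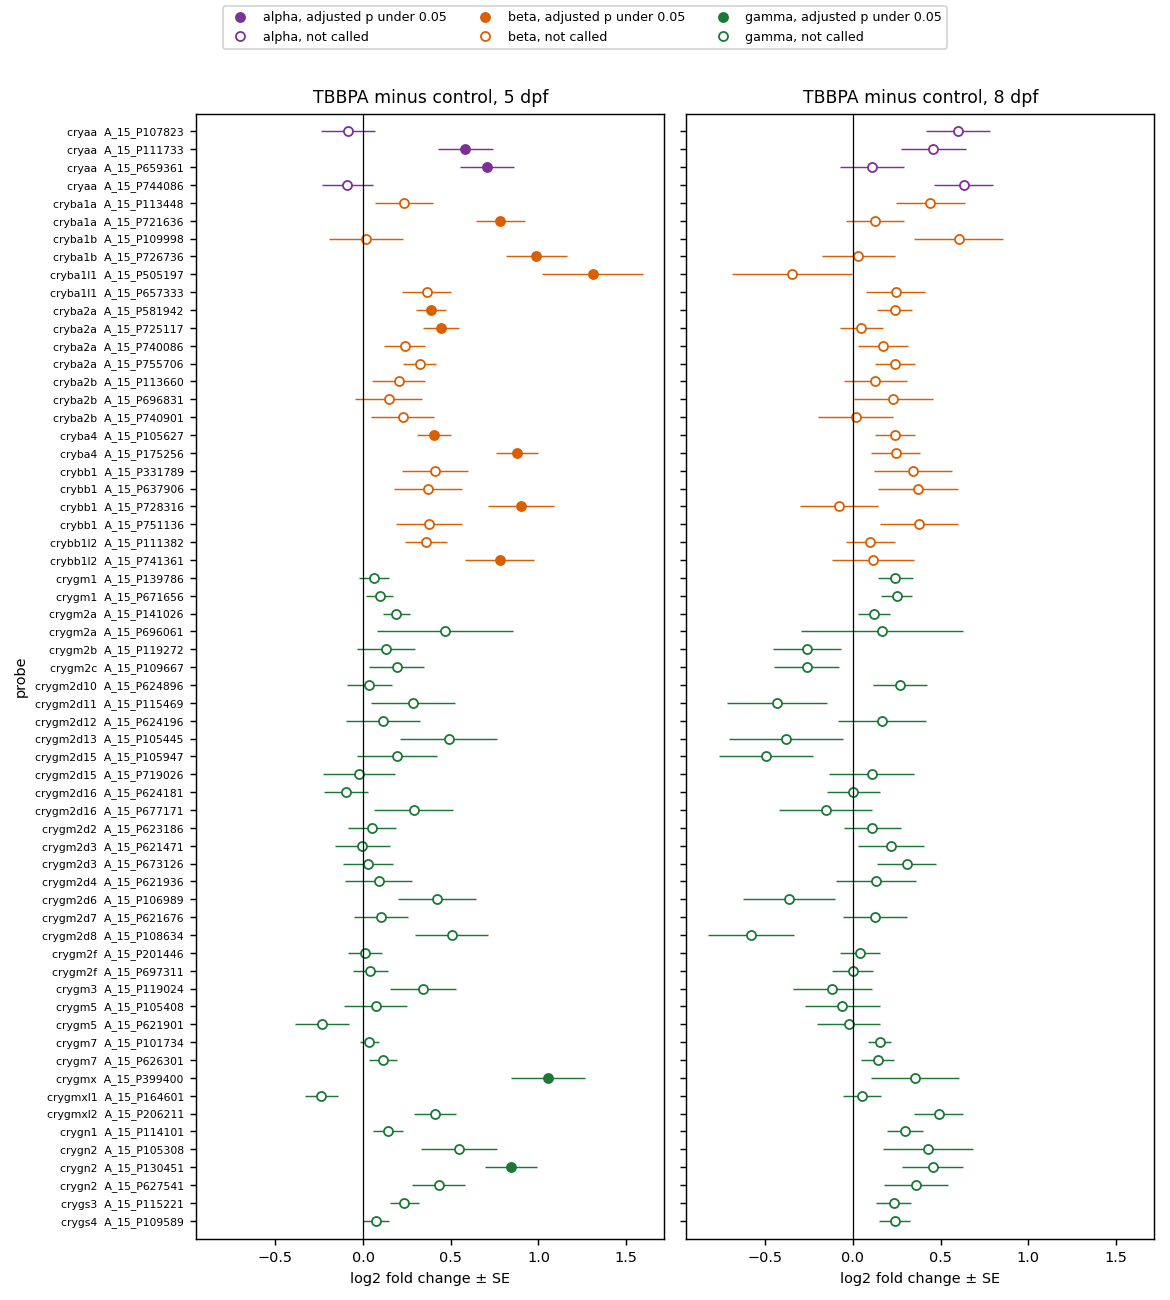
Log2 fold change ± SE of TBBPA against control for each of the 62 crystallin probes at 5 dpf (left) and at 8 dpf (right), with filled points for an adjusted p under 0.05. At 5 dpf all 21 beta probes lie above 0 and 13 points are filled, whereas at 8 dpf 0 points are filled.

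In the beta class, the smallest adjusted p at 5 dpf was that of cryba4, an acidic beta crystallin. Its probe A_15_P175256 had levels of -0.95, -1.16 and -0.69 in control replicates 1 to 3 and of -0.26, 0.27 and -0.15 in TBBPA replicates 1 to 3. All TBBPA samples lay above all control samples, and the log2 fold change was 0.88 ± 0.12 (adjusted p = 0.000925). The other cryba4 probe, A_15_P105627, rose by 0.40 ± 0.10 (adjusted p = 0.0198).

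The basic beta crystallin gene crybb1 is the direct neighbour of cryba4 in the RefSeq gene order. Its probe A_15_P728316 gave -0.56, -1.25 and -0.59 in controls against -0.30, 0.55 and 0.22 after TBBPA. The groups did not overlap, and the rise was 0.90 ± 0.19 (adjusted p = 0.0105). The other 3 crybb1 probes had positive fold changes of 0.37 to 0.41, which did not pass the test.

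The genes cryba1a and cryba1b are copies of the gene for beta A1 crystallin. For cryba1a, probe A_15_P721636 was at -0.90, -0.99 and -0.63 in controls and at -0.25, 0.24 and -0.22 after TBBPA. The groups did not overlap, and the probe rose by 0.78 ± 0.14 (adjusted p = 0.00420). For cryba1b, probe A_15_P726736 was at -0.75, -1.29 and -0.60 in controls and at -0.09, 0.31 and 0.14 after TBBPA. The groups again did not overlap, and the rise was 0.99 ± 0.18 (adjusted p = 0.00408), a fold change of 1.98. The second probes of these genes gave 0.23 ± 0.17 for cryba1a (A_15_P113448) and 0.02 ± 0.21 for cryba1b (A_15_P109998), the latter the lowest value in the beta class.

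The largest fold change among the crystallins was that of cryba1l1, a further gene of the beta A1 type. Probe A_15_P505197 gave -0.95, -1.98 and -0.31 in controls and -0.43, 0.83 and 0.17 after TBBPA. Here the groups overlapped, since control replicate 3 lay above TBBPA replicate 1, and the probe rose by 1.31 ± 0.29 (adjusted p = 0.0137). The second cryba1l1 probe, A_15_P657333, was 0.36 ± 0.14 higher without passing the test (adjusted p = 0.139). For crybb1l2, a gene of the beta B1 type, probe A_15_P741361 was at -0.67, -1.32 and -0.51 in controls and at -0.49, 0.44 and -0.03 after TBBPA. The groups lay just apart, and the probe rose by 0.78 ± 0.20 (adjusted p = 0.0278). Smaller rises were found for 2 of the 4 probes of cryba2a, of 0.39 ± 0.09 (A_15_P581942) and 0.45 ± 0.10 (A_15_P725117), while the 3 probes of its paralog cryba2b gave 0.15 to 0.23 and did not pass the test.

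Among gamma crystallins, the rise at 5 dpf was limited to 2 probes by this test. The gamma MX crystallin gene crygmx, on probe A_15_P399400, was at -1.32, -1.79 and -0.91 in controls and at -0.62, 0.06 and -0.28 after TBBPA. The groups did not overlap, and the rise of 1.05 ± 0.21 (adjusted p = 0.00809) was the highest of the class. The other was crygn2, a gamma N crystallin, the type held to be intermediate between the beta and gamma classes. Its probe A_15_P130451 was at -1.04, -1.19 and -1.0 in controls and at -0.27, -0.18 and -0.09 after TBBPA, so that the groups were far apart, and it rose by 0.84 ± 0.15 (adjusted p = 0.00359). The other 2 crygn2 probes had fold changes of 0.43 and 0.55 with adjusted p of 0.106 and 0.147. At the low end of the class, crygmxl1 was at 0.22, -0.29 and 0.27 in controls and at -0.25, -0.13 and -0.21 after TBBPA. These groups overlapped, and the difference was -0.24 ± 0.09 (adjusted p = 0.141).

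The large group of crygm2d genes, near-identical tandem copies, was represented by 15 probes of 12 genes. Of these probes 0 rose or fell at 5 dpf, where 4.23% of all probes rose and 2.84% fell. Their fold changes ran from -0.10 to 0.51, with a median of 0.10. Probe sequences were not used here, and a probe of this group may pick up transcripts of other copies, so that single crygm2d genes cannot be told apart with certainty. In the RefSeq gene order these genes lie in a run of 31 crystallin genes with no other protein-coding gene between them, from crygm2c to crygs3, of which 21 had a member probe. None of the 27 probes of this run rose at 5 dpf (median 0.10), where 4.23% of all probes rose. The 2 gamma probes that rose belong to the 10 gamma probes outside the run (median 0.28). With so low a share over all probes, 0 among 27 or among 15 probes does not set them apart from other probes.

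The alpha crystallin gene cryaa, which codes for the lens chaperone alpha A crystallin, gave different values depending on the probe. Probe A_15_P111733 was at -0.43, -0.78 and -0.57 in controls and at -0.21, 0.38 and 0.01 after TBBPA, and probe A_15_P659361 at -0.48, -0.76 and -0.28 against -0.20, 0.75 and 0.13. In both cases the groups did not overlap, and the rises were 0.58 ± 0.16 (adjusted p = 0.0345) and 0.71 ± 0.15 (adjusted p = 0.0129). Probe A_15_P107823, in contrast, was at 0.12, 0.11 and -0.18 in controls and at 0.01, -0.18 and 0.15 after TBBPA, and probe A_15_P744086 at 0.09, 0.09 and -0.23 against -0.02, -0.19 and 0.10. For these the groups overlapped fully, with fold changes of -0.09 ± 0.15 and -0.09 ± 0.14.

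The cryaa probes thus formed pairs. Over the 12 samples, which share arrays, A_15_P107823 and A_15_P744086 followed each other with Pearson's r of 0.99, A_15_P111733 and A_15_P659361 with r of 0.88, and the values between the pairs were 0.17 to 0.57. Probes of 1 gene also differed for some genes of the beta class. The pair of cryba1b probes gave r of 0.46, and crybb1 A_15_P728316 had r of 0.46 to 0.49 with the other 3 crybb1 probes, which had a lowest r of 0.99 among themselves. The pair of cryba4 probes, in contrast, gave r of 0.88. Gamma genes varied likewise, with r of 0.99 for the pair of crygm1 probes, 0.64 for crygm2a and 0.39 for crygm2d15.

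Some probes were more like a probe of another gene than any other probe of their own gene. Among the 8 probes past both limits of the study, the 28 pairs had a median r of 0.93 and a lowest r of 0.62. The probe most like cryba4 A_15_P175256 was cryba1a A_15_P721636 (r = 0.99), and the probe most like cryaa A_15_P659361 was crybb1 A_15_P728316 (r = 0.94). Of the 44 probes of genes with several probes, 16 had another probe of their own gene as the member most like them. Each had at most 3 partners of its own gene and many of other genes. This count therefore cannot show that probes of different genes are more alike. These 8 probes were chosen by their change at 5 dpf, and their r is given as a description only.

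**Figure D2:**
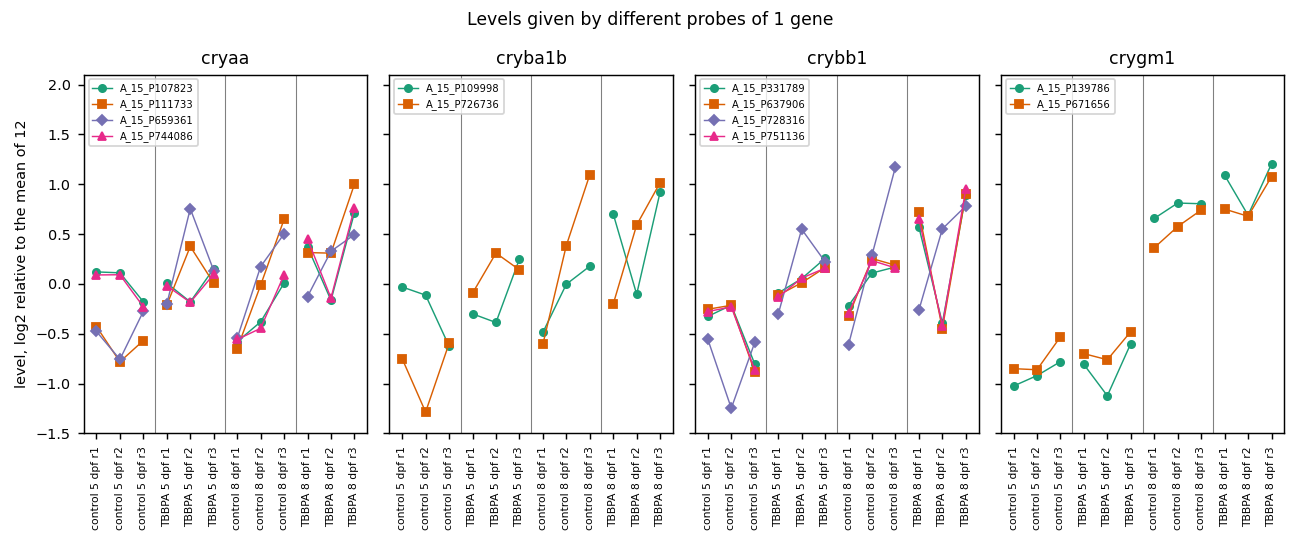
Levels of the 12 RNA samples (log2, relative to their mean) given by the different probes of cryaa, cryba1b, crybb1 and crygm1, with vertical lines between the groups and lines joining the replicates of a group only to guide the eye. The cryaa probes fall into 2 pairs, 1 crybb1 probe departs from the other 3, and the crygm1 probes run together.

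When the probes of a gene were averaged on each array before the fit, 9 of the 36 crystallin genes rose at 5 dpf and 0 fell, against 5.87% and 3.44% of 8948 genes. These were the beta genes cryba1a, cryba1b, cryba1l1, cryba2a, cryba4 and crybb1l2 and the gamma genes crygmx, crygmxl2 and crygn2. With its 4 probes averaged, cryaa did not pass the test.

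The calls at 5 dpf changed when single samples were left out, a step that also drops every array carrying the sample. By sample levels, 23 crystallin probes had all TBBPA samples above all controls and 0 had them all below, compared with 8.54% and 9.18% of all probes. An exact permutation test of 3 against 3 samples cannot give a p below 0.10. Without replicate 1 of control 5 dpf, 0 crystallin probes were called (0.273% of all probes in either direction), and without replicate 2 of the control 3 were called (2.03%). Without replicates 2 or 3 of TBBPA 5 dpf 2 and 8 were called (2.07% and 3.81%), and without replicate 2 of TBBPA 8 dpf the count was 20 (6.76%). All 13 probes kept a positive fold change in each of the 12 fits that left out a sample. The 13 probes were chosen by their rise in the full fit, and these fits share most of its arrays. The kept sign is therefore a description only and no separate test of the 13 probes. Without replicate 1 of control 5 dpf, which was also on arrays linking the ages, their fold changes were 0.33 to 1.18. Without replicate 2 of TBBPA 5 dpf they were 0.32 to 0.91, compared with 0.39 to 1.31 in the full fit. The part of the lost arrays in the lower counts was not tested. With plates in place of arrays as replicates, limma called 0 crystallin probes and 1 probe of all. In that fit 14 crystallin probes, all higher, had an unadjusted p under 0.05 (smallest adjusted p 0.294), where 7.18% of all probes did in either direction. With a dye effect and the RNA sample as a random effect, 7 of the 13 kept their call, where limma called 3.4% of all probes in either direction. Among the 7 were cryba4 A_15_P175256 (adjusted p = 0.00639) and crygn2 A_15_P130451 (adjusted p = 0.0196), while the calls of both cryaa probes were lost (adjusted p = 0.0938 and 0.0506).

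By class, the 5 dpf levels of the beta probes averaged -0.50, -0.69 and -0.49 in controls and -0.27, 0.13 and 0.01 after TBBPA, so that the groups were separate. The gamma probes averaged -0.34, -0.54 and -0.10 against -0.31, -0.01 and -0.14, with overlap. In the TBBPA group replicate 1 was the lowest of the group on 50 of the 62 probes.

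**Figure D3:**
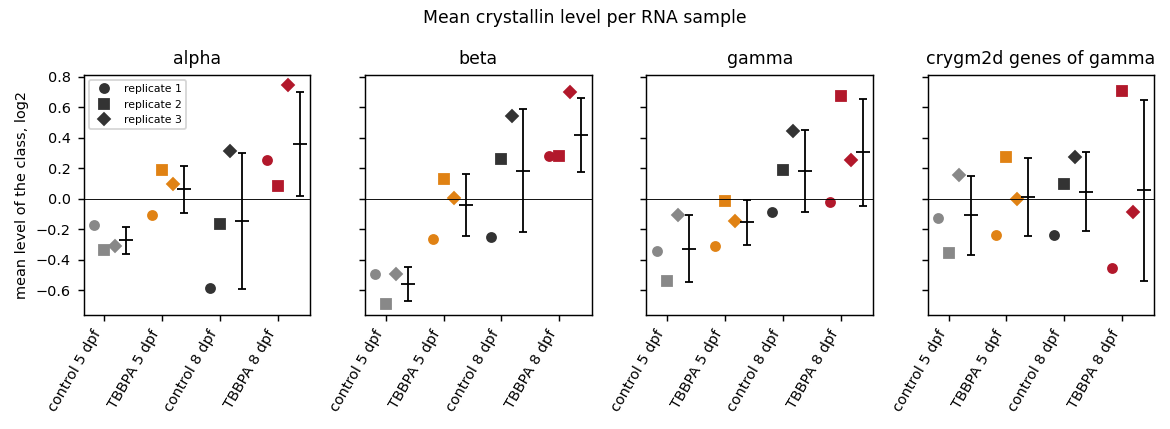
Mean level of the alpha, beta and gamma probes and of the crygm2d probes within the gamma class in each RNA sample (log2, relative to the mean of the 12 samples), with the mean ± SD of the 3 samples beside them. Beta crystallins of the 3 control samples at 5 dpf, at -0.50, -0.69 and -0.49, lie below all other samples, and the crygm2d probes at 8 dpf spread from -0.46 to 0.71 in the TBBPA group.

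Other lens genes were read from a list of 41 genes, of which 27 were measured. As gene averages, 7 of them rose at 5 dpf and 0 fell, where 5.87% of all genes rose and 3.44% fell. The median of the list was 0.20. Those that rose were lim2.3 (0.75 ± 0.15), lim2.5 (0.75 ± 0.17), lim2.1 (0.56 ± 0.14) and lim2.4 (0.34 ± 0.09), named after a fibre cell membrane protein, bfsp2 (0.39 ± 0.08), a protein of the beaded filament, and gje1a (0.25 ± 0.05), a connexin. The seventh was fabp4a (0.24 ± 0.05), a fatty acid binding protein, with the list giving these last genes as cx23 and fabp11a. The other 20 did not pass the test. Among them were the membrane protein genes mipb (0.35 ± 0.13), lim2.2 (0.20 ± 0.07) and mipa (-0.09 ± 0.07), the lens galectin gene grifin (0.27 ± 0.19), and the transcription factor genes pitx3 (0.24 ± 0.13) and prox1a (-0.28 ± 0.13).

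Markers of tissues other than lens moved at 5 dpf as well, where 5.87% of all genes rose and 3.44% fell. Of the skin and cornea epithelium list 16 of 27 measured genes rose and 0 fell, and its mean level was 0.11 to 0.51 in controls and 0.56 to 0.74 after TBBPA. Cartilage and bone genes rose in 13 of 18 cases (0.37 to 0.60 against 0.79 to 0.94), and skeletal muscle genes in 6 of 28 (-0.04 to 0.47 against 0.38 to 0.53). All 15 exocrine pancreas genes fell, with mean levels of 1.78, 0.98 and 0.64 in control replicates 1 to 3. After TBBPA these were 0.44, 0.19 and -0.23 in replicates 1 to 3. Of the 22 photoreceptor genes 5 rose and 6 fell (0.19 to 0.26 against 0.21 to 0.36). The part of other tissue in the crystallin result was not tested.

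At 8 dpf, after 3 days in clean water, 0 of the 62 crystallin probes were called by limma between TBBPA and control, where 0.696% of all probes rose and 0.696% fell. At an unadjusted p under 0.05 there were 14 higher and 1 lower crystallin probes, where 11.7% of all probes were in either direction. The smallest adjusted p of a crystallin probe was 0.0991. The median log2 fold change was 0.53 in the alpha class, 0.23 in the beta class and 0.13 in the gamma class, against 0.00 over all probes. Of the 62 values 48 were positive, where 51.8% of all probes were. Only cryba2b A_15_P696831 and crygm7 A_15_P101734 had all TBBPA samples above all controls by level, where 3.48% of all probes did, and 0 crystallin probes had them all below, where 2.69% did.

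The count at 8 dpf also moved with single samples. Without replicate 2 of TBBPA 8 dpf, 14 crystallin probes rose and crygm2d8 fell by 0.95 (adjusted p = 0.0383), while 3.31% of all probes were called in either direction in that fit. Without replicate 3 of control 8 dpf 3 crystallin probes rose (1.17% of all probes called), and with array weights 8 rose (4.91% of all probes called).

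The probes with the least change at 5 dpf were in part those with the highest values at 8 dpf. For cryaa, the fold changes at 8 dpf were 0.60 ± 0.18 for A_15_P107823 and 0.63 ± 0.17 for A_15_P744086 (adjusted p = 0.145 and 0.0991), but 0.46 ± 0.18 and 0.11 ± 0.18 for A_15_P111733 and A_15_P659361. The levels of A_15_P744086 were -0.56, -0.45 and 0.09 in control 8 dpf and 0.45, -0.14 and 0.76 in TBBPA 8 dpf, so that TBBPA replicate 2 lay among the controls. Probe A_15_P107823 showed the same order, with -0.58, -0.38 and 0.01 against 0.37, -0.16 and 0.72.

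In the beta class the highest value at 8 dpf was that of cryba1b A_15_P109998. Its levels were -0.49, -0.00 and 0.18 in controls and 0.70, -0.10 and 0.92 after TBBPA. TBBPA replicate 2 was again within the control range, and the difference was 0.60 ± 0.25 (adjusted p = 0.350). The lowest was cryba1l1 A_15_P505197, the probe with the largest rise at 5 dpf. It was at -0.65, 0.73 and 1.49 in controls and at -0.57, 1.15 and 0.52 after TBBPA, an overlap over nearly the whole range, with a difference of -0.35 ± 0.34 (adjusted p = 0.816).

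In the gamma class the highest value at 8 dpf was that of crygmxl2, the neighbour of crygmx in the gene order. It was at 0.10, 0.56 and 0.64 in controls and at 1.05, 0.60 and 1.14 after TBBPA, with replicate 2 of TBBPA between control replicates 2 and 3. The difference was 0.49 ± 0.14 (adjusted p = 0.127), and that at 5 dpf 0.41 ± 0.12 (adjusted p = 0.0519). The lowest was crygm2d8, with -0.09, -0.31 and 0.50 in controls and -1.19, 0.52 and -0.60 after TBBPA. Its TBBPA samples lay on both sides of the controls, and the difference was -0.58 ± 0.25 (adjusted p = 0.357).

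The difference between the TBBPA effects at 8 and 5 dpf was tested directly, and 0 crystallin probes passed, where 0.0223% of all probes were higher and 0.039% lower. At an unadjusted p under 0.05 limma gave 2 higher and 10 lower crystallin probes, where 11.5% of all probes were in either direction. The smallest adjusted p of a crystallin probe was 0.156, for cryba1l1 A_15_P505197 at -1.65 ± 0.45. Loss of the calls at 8 dpf is therefore not shown as a loss of the effect for any single crystallin probe. The SE was wider at 8 dpf, with a median of 0.18 over the crystallin probes against 0.15 at 5 dpf. Both were above the medians over all probes, 0.08 and 0.07. The fit uses the same variance of a probe for both ages. The wider SE is therefore set by the array layout, with 4 direct arrays at 8 dpf against 6 at 5 dpf. It does not measure the spread at either age.

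The TBBPA samples of 8 dpf spread widely on the crygm2d genes. Their median SD over the 3 samples of TBBPA 8 dpf was 0.50, compared with 0.20 in control 5 dpf, 0.28 in TBBPA 5 dpf and 0.28 in control 8 dpf. On 15 of 15 crygm2d probes replicate 2 was the highest of the TBBPA 8 dpf group, and on 14 of 15 replicate 1 was the lowest, down to -1.35 for crygm2d15 A_15_P105947. The widest spread was on crygm2a A_15_P696061, with -0.92, 2.71 and 0.41 in this group. In control 8 dpf, replicate 1 was the lowest on 57 of 62 probes and replicate 3 the highest on 43. Control replicates 1 and 2 were joined by arrays to TBBPA replicate 1 at this age, and control replicate 3 to TBBPA replicates 2 and 3, and these sets met only through samples of 5 dpf, so that errors of the linking arrays enter the levels at 8 dpf. Their part in this spread was not tested.

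**Figure D4:**
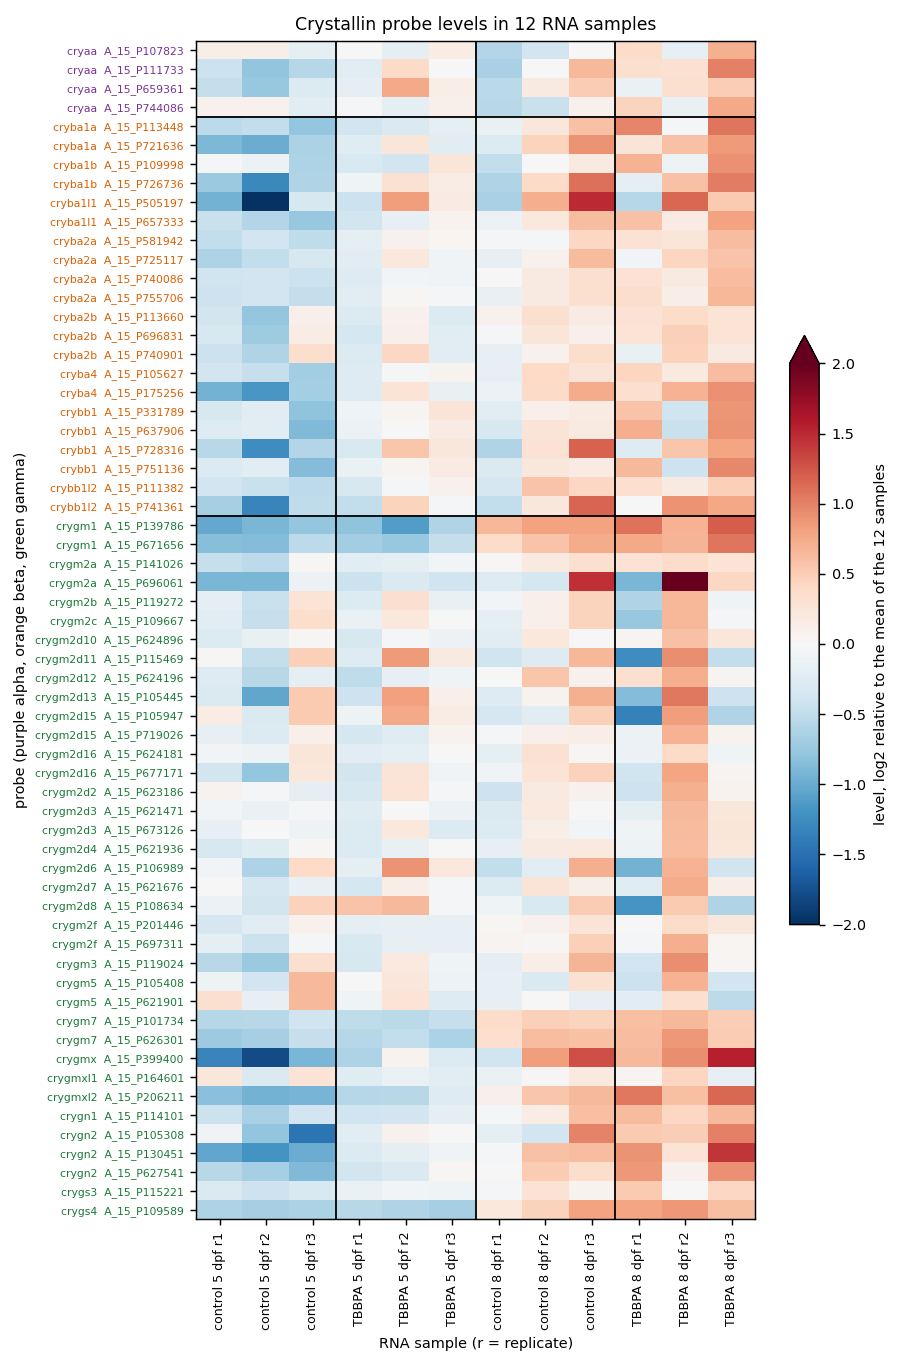
Level of each of the 62 crystallin probes (rows, alpha, beta and gamma from top) in each of the 12 RNA samples (columns, r for replicate), as log2 relative to the mean of the 12 samples, with the colour scale ending at 2 and 1 value, 2.71 for crygm2a, beyond it. Control samples of 5 dpf are low (blue) on most beta probes, and crygm1, crygm7 and crygs4 change with age in both treatments.

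Crystallin transcripts also changed with age. Between control 5 dpf and control 8 dpf 29 of the 62 probes rose and 0 fell, where 14% of all probes rose and 18.2% fell. The risers were 13 of 21 beta, 15 of 37 gamma and 1 of 4 alpha probes, and 18 of them were past the fold limit of 0.75, compared with 2.22% of all probes higher and 4.58% lower past both limits. Medians were 0.63 for beta, 0.49 for gamma and 0.03 for alpha, with 0.03 over all probes. The alpha median again lies between cryaa probes that differ, at -0.51 and -0.49 against 0.54 and 0.75. As gene averages 17 of 36 crystallin genes rose, where 14.3% of all genes did. A positive value was found for 57 of the 62 probes, where 53.7% of all probes had one.

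Rises with age that were large beside their SE were found in gamma crystallins, on genes chosen here after their values were seen. For crygm1, a gamma M crystallin, probe A_15_P139786 went from -1.02, -0.92 and -0.78 at 5 dpf to 0.66, 0.81 and 0.80 at 8 dpf in controls. The ages were far apart, and the rise was 1.67 ± 0.13 (adjusted p = 5.30e-07), a fold change of 3.17. The second crygm1 probe gave 1.37 ± 0.12. For crygm7, likewise of the gamma M type, probe A_15_P101734 went from -0.58, -0.55 and -0.40 to 0.37, 0.47 and 0.44, a rise of 0.98 ± 0.08 (adjusted p = 1.07e-06), and its second probe rose by 1.22 ± 0.12. For crygs4, a gamma S crystallin, levels went from -0.62, -0.67 and -0.63 to 0.22, 0.46 and 0.80, a rise of 1.04 ± 0.11 (adjusted p = 1.11e-05). On these 5 probes the TBBPA effect at 5 dpf was 0.04 to 0.11 and did not pass the test.

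The 2 largest rises with age were on crygmx and cryba1l1, both of which had also risen after TBBPA at 5 dpf. In controls crygmx went from -1.32, -1.79 and -0.91 to -0.40, 0.83 and 1.29, without overlap, and rose by 2.04 ± 0.32 (adjusted p = 0.000285), the highest of the gamma class. The highest of the beta class was cryba1l1 A_15_P505197, from -0.95, -1.98 and -0.31 to -0.65, 0.73 and 1.49. Its ages overlapped, and it rose by 1.96 ± 0.44 (adjusted p = 0.00391). The remaining 6 probes past both limits at 5 dpf rose by 1.17 to 1.41, below the 1.67 of crygm1 A_15_P139786, which had not risen at 5 dpf. Both comparisons use the control samples of 5 dpf, and low levels there raise both values, so that the values are given side by side only.

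At the other end, cryba1b A_15_P109998 had the lowest value in the beta class, with -0.03, -0.11 and -0.62 at 5 dpf and -0.49, -0.00 and 0.18 at 8 dpf. The ages overlapped and the difference was -0.05 ± 0.33, whereas the other cryba1b probe rose by 1.25 ± 0.27 (adjusted p = 0.00287). In the gamma class crygm5 A_15_P621901 was lowest, going from 0.32, -0.17 and 0.65 to -0.17, -0.01 and -0.16, a difference of -0.31 ± 0.24 (adjusted p = 0.328). The cryaa pairs were apart with age too, at -0.51 ± 0.23 and -0.49 ± 0.22 for A_15_P107823 and A_15_P744086 (adjusted p = 0.109 and 0.102), and 0.54 ± 0.24 and 0.75 ± 0.24 for A_15_P111733 and A_15_P659361 (adjusted p = 0.0950 and 0.0249).

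None of the 15 crygm2d probes was called with age in controls, where 14% of all probes rose and 18.2% fell. All 15 values were positive (0.19 to 0.90, median 0.38), where 53.7% of all probes were. Within the run of neighbouring gamma genes 6 of 27 probes rose, where 14% of all probes did. These were the probes of crygs3 and crygs4, both of crygm2f, 1 of crygm2a and that of crygm3. Outside the run 9 of 10 gamma probes rose, and these 10 probes belong to only 6 genes.

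In larvae that had been exposed, 24 crystallin probes rose from TBBPA 5 dpf to TBBPA 8 dpf and 1 fell, where 20.9% of all probes rose and 22.4% fell. By class 9 beta and 15 gamma probes rose. Past the fold limit as well were 12 probes that rose and 1 that fell, compared with 3.13% and 6.19% of all probes. The probe that fell was that of crygm2d8, from 0.57, 0.64 and -0.03 to -1.19, 0.52 and -0.60, with overlap and a change of -0.89 ± 0.32 (adjusted p = 0.0353). The highest values were those of the crygm1 probes, at 1.85 ± 0.13 (A_15_P139786) and 1.52 ± 0.12 (A_15_P671656), followed by crygmx at 1.35 ± 0.32. A rise in both treatments was called for 22 probes, where 11.5% of all probes rose in both. A further 7 were called in controls only, where 2.48% of all probes were, cryba1l1 A_15_P505197 among them with 1.96 ± 0.44 in controls and 0.30 ± 0.44 after TBBPA, and 2 risers were called after TBBPA only, where 9.32% of all probes were. A call in a single treatment does not show that the treatments differ. The direct test is the difference between the TBBPA effects at the 2 ages given above, in which 0 crystallin probes passed.

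**Figure D5:**
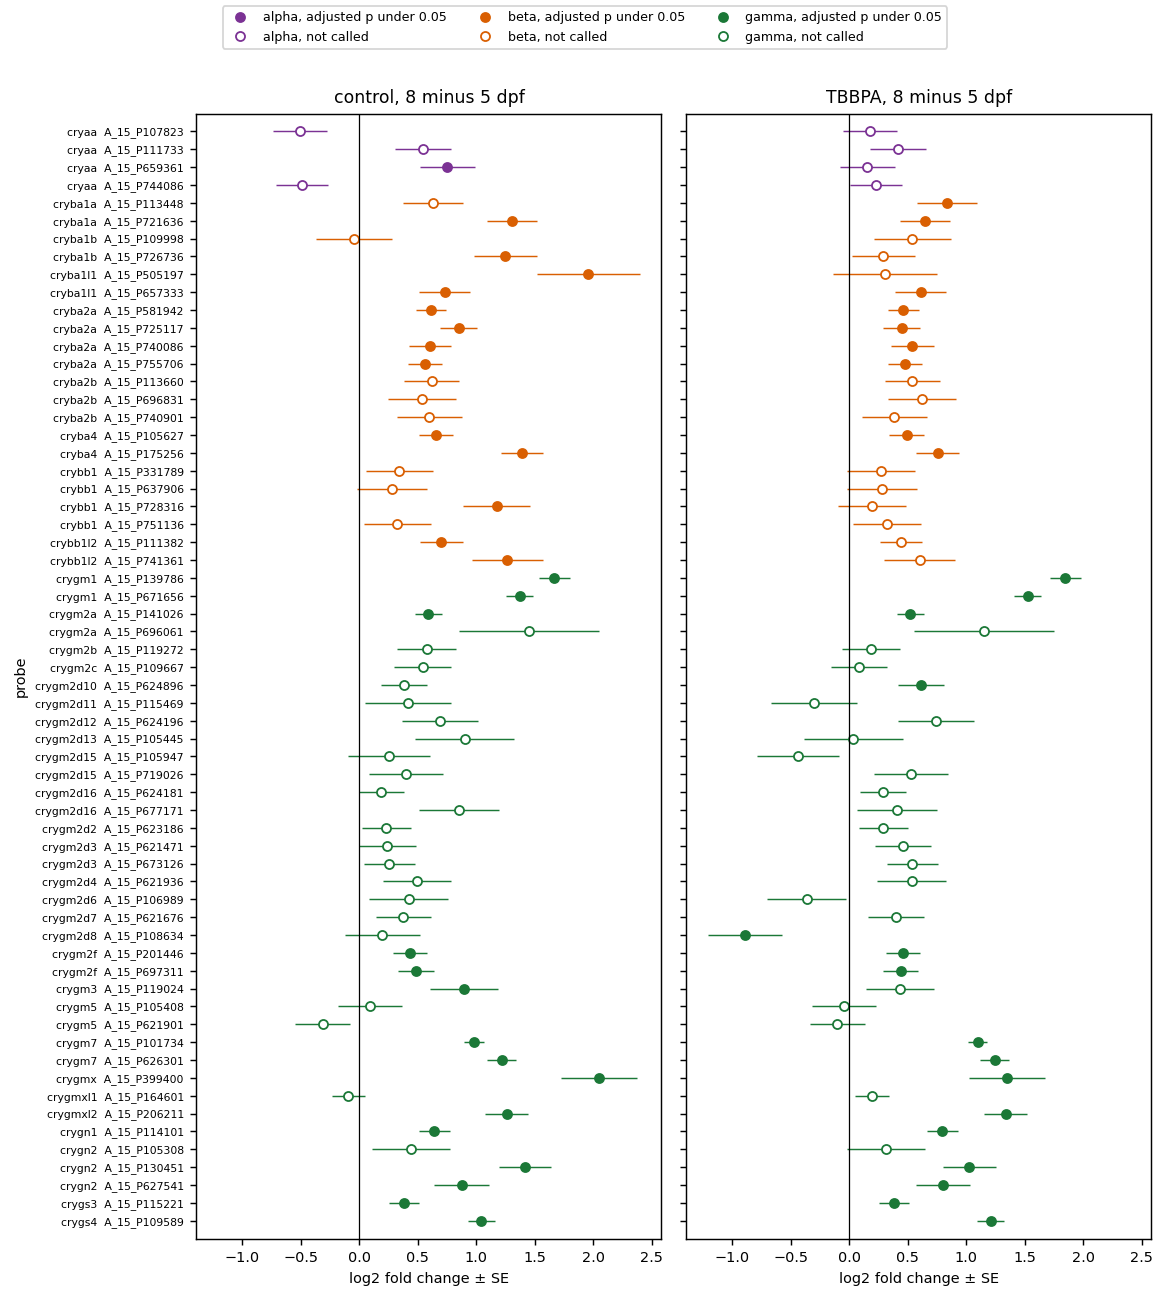
Log2 fold change ± SE from 5 to 8 dpf for each of the 62 crystallin probes in control (left) and TBBPA (right) samples, with filled points for an adjusted p under 0.05. In controls 29 points are filled, all above 0, and after TBBPA 25 are filled, 24 above 0 and crygm2d8 below.

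The age comparison leaned on the linking samples. Without replicate 1 of control 5 dpf 9 crystallin probes were called in controls (7.77% of all probes in either direction), without replicate 1 of TBBPA 5 dpf 19 (14.3%), and without replicate 2 of control 8 dpf 18 (14.4%). In the TBBPA samples the count was 6 without replicate 1 of TBBPA 5 dpf (9.83%) and 9 without replicate 3 of TBBPA 8 dpf (29.7%). Beside the crystallins, 10 of the 27 other lens genes rose with age in controls and 6 fell, where 14.3% and 22.8% of all genes did. These lens genes ran from lim2.5 (1.76 ± 0.26) and lim2.4 (1.25 ± 0.14) at the top to fabp4a (-0.90 ± 0.08) and sox1a (-0.67 ± 0.08), a transcription factor gene, at the bottom. Among the other tissue lists, 16 of 27 skin and cornea, 15 of 18 cartilage and bone, 13 of 28 muscle, 15 of 15 pancreas and 15 of 22 photoreceptor genes fell, where 22.8% of all genes did, and their part in the crystallin values was not tested.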

How the data were processed

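The authors, by their methods, dropped dim spots, subtracted background by normexp, removed dye trends with within-array loess and used limma, listed as 3.34.4 in the submitters' processing notes. What they deposited is 1 log2 ratio for each probe on each array. The table states neither log base nor direction. Base 2 and Cy5 over Cy3 were taken from the methods and dye labels. Per-sample columns left unused numbered 0.

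For the tests, limma 3.58.1 in R 4.3.3 was run on the unaltered ratios, with 1 coefficient per group, all 14 arrays, 11 residual and 3.61 prior degrees of freedom, empirical Bayes moderated two-sided tests and Benjamini-Hochberg adjustment over 17950 probes. The fit was run on simulated data with noise drawn separately for each array. The calls checked there included no effect of the dye or of the RNA sample. Of the 62 member probes, 60 were matched by accession to current symbols in a RefSeq table (GRCz12tu), used for names and gene order only, and 2 kept the name of the platform annotation. Only ratios are given, so that depth is not defined, and the number of arrays limits the precision.

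Named with sample values were members past the thresholds of the study (adjusted p under 0.05, absolute log2 fold change over 0.75), all alpha members and the highest and lowest beta and gamma member of each main comparison. Members and lists were chosen with earlier results of these data known. Alternatives were a dye effect, the RNA sample as a random effect, plates as replicates, a replicate block, centring, array weights, averaged probes, direct arrays only and leaving out each sample.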

Additional observations from a re-analysis of the deposited data

How the results depend on the processing

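The count of crystallin probes called at 5 dpf was 13. Of all probes 7.08% were called in either direction, and this share is given in parentheses below. The count was 7 (3.4%) with a dye effect and the RNA sample as a random effect. It was 0 (0.00557%) with plates as replicates, 8 (0.708%) with the fold limit of the study, and 0 to 20 (0.273% to 9.47%) when 1 sample was left out. At 8 dpf the count of 0 (1.39%) became 8 (4.91%) with array weights and 0 to 15 (0.0501% to 3.31%) with 1 sample left out. For the difference of the effects it became 2 (1.08%) with array weights and 0 to 1 (0% to 0.891%) with 1 sample left out. With age the counts were 29 (32.3%) in controls and 25 (43.3%) after TBBPA. They were 18 (6.8%) and 13 (9.32%) with the fold limit. With 1 sample left out they were 9 to 35 (7.77% to 38.5%) and 6 to 29 (9.83% to 42.2%). With probes averaged they were 17 and 15 of 36 genes. Of all genes 14.3% rose and 22.8% fell with age in controls, and 19.7% rose and 27.4% fell after TBBPA. The construction of the fold limit and of averaging lowers the counts, and for the other settings the cause was not tested.

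Same-numbered control and TBBPA samples correlated at r of -0.14, -0.11 and -0.04 at 5 dpf and 0.68, -0.46 and 0.09 at 8 dpf. Differently numbered samples gave -0.05 to 0.18 at 5 dpf and -0.73 to 0.59 at 8 dpf. Levels of samples on the same array share its errors, so that these r cannot test a pairing. Replicate numbers were not taken to pair the samples. With the replicate number as a block the counts of the 62 crystallin probes were 15 at 5 dpf, 2 at 8 dpf and 0 for the difference. Over all probes 7.87%, 1.9% and 0.412% were called in these. With age the counts were 19 in control and 15 in TBBPA samples, where 18.7% and 33.9% of all probes were called.

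Class medians stayed within the spread between samples under the alternatives run. That spread was wider than some of the medians. At 8 dpf the gamma class mean had an SD of 0.27 in control and 0.35 in TBBPA samples, against a median change of 0.13. Staying within the spread therefore cannot show that a median is stable. With 1 sample left out, the gamma median at 8 dpf ran from -0.04 to 0.19 and the alpha median with age from -0.16 to 0.25, and their sign is therefore not settled. The number of arrays limits all values, and with 3 plates per group small differences could not be shown.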

Other observations

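A further 9 probes of 6 crystallin genes carry a clone name in the platform annotation and were not members. Named by accession, they are cryba1l2 (3 probes), crybgx, crygm2d14, crygm2d17, crygm2d18 (2 probes) and crygm2d20. At 5 dpf cryba1l2 A_15_P659501 (0.43 ± 0.09, adjusted p = 0.0121) and crybgx (0.41 ± 0.12, adjusted p = 0.0488) rose, while the other cryba1l2 probes were at 0.05 ± 0.10 and 0.04 ± 0.09. All 3 cryba1l2 probes rose with age in controls, by 1.03 to 1.11, and crybgx rose by 1.15 ± 0.18. Of all probes 14% rose with age in controls and 18.2% fell. The 5 crygm2d probes had fold changes of -0.17 to 0.11 at 5 dpf and 0.13 to 0.35 with age, and 0 of them were called. With these probes added, 15 crystallin probes were called at 5 dpf, where 7.08% of all probes were called in either direction. This addition was chosen after seeing the data.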
